A study of Homo sapiens with 4 samples.

Results

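The transcripts of the core m6A machinery were examined in MHCC97H cells after knockdown of UBXN1. The genes were 10 members taken by symbol: the writers METTL3, METTL14, WTAP and VIRMA, the erasers FTO and ALKBH5, and the readers YTHDF1, YTHDF2, YTHDF3 and YTHDC1. All 10 were found among the 61541 gene IDs of the count table, and all 10 passed the filter on low counts that left 16863 genes for testing. MHCC97H is an established human hepatocellular carcinoma line. It was sequenced with a control short hairpin RNA (shCon, 2 libraries) or with one against UBXN1 (shUBXN1, 2 libraries). Per the study's methods the hairpins were delivered by lentivirus, and the control hairpin is described there as one against RFP. UBXN1 encodes a UBX domain cofactor of the p97/VCP ATPase, and the comparison addresses what its loss changes in the transcriptome of these tumor cells. Which of the study's hairpins was sequenced is not given in the sources used here, nor is whether both shUBXN1 libraries carried the same one. The labels do not say that the 2 libraries of a group came from separate cultures, and the p-values then measure only the spread between these libraries, which may be technical.

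N6-methyladenosine (m6A) is the most common internal modification of mRNA. A nuclear writer complex deposits it, with METTL3 as the catalytic subunit, METTL14 as the RNA-binding partner, WTAP as the adaptor and VIRMA as the scaffold. The 2-oxoglutarate-dependent dioxygenases FTO and ALKBH5 remove the methyl group, and YTH domain proteins read the mark, YTHDC1 in the nucleus and YTHDF1, YTHDF2 and YTHDF3 in the cytoplasm. The libraries measured transcript abundance only. The methylation of RNA, the proteins and the activity of the enzymes were not measured.

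The libraries held 23373700 to 27380508 counts, and the 10 genes together took 0.0837% to 0.0882% of them. UBXN1 itself was present at 67.1 and 77.3 CPM (counts scaled to a common library total with TMM factors) in shCon and at 16.8 and 18.5 CPM in shUBXN1. Its log2 fold change was -2.03 ± 0.0963 (SE, n = 2 per group), and the shUBXN1 libraries retained 24.5% of the control level with a 95% interval from 21.2% to 28.2%. Of 10 markers of hepatic epithelium 7 reached 1 CPM in every library, with summed levels of 4367 and 4534 CPM in shCon and 3447 and 4038 CPM in shUBXN1. Nearly all of these sums came from KRT8 and KRT18, and the markers did not move together. Albumin was at 18.0 and 17.2 CPM in shCon and 4.20 and 4.78 CPM in shUBXN1, and FGB at 9.71 and 9.96 CPM and 0.808 and 0.384 CPM, whereas SERPINA1 was at 8.21 and 9.02 CPM in shCon and 10.9 and 11.8 CPM in shUBXN1. Among 5 leukocyte markers only CD68 passed 1 CPM in every library (summed levels 70.8 to 89.1 CPM), and CD3E was at 0 throughout. The 4 endothelial markers summed to 48.4 and 49.9 CPM in shCon and to 92.6 and 99.5 CPM in shUBXN1 through PECAM1 and KDR, while CDH5 stayed at or below 0.255 CPM. No fibroblast or erythroid marker of 7 reached 1 CPM in every library, but fibroblast markers differed between groups in both directions. COL1A1 was at 0.375 and 0.170 CPM in shCon and at 2.34 and 2.52 CPM in shUBXN1. LRAT was at 1.99 and 2.64 CPM in shCon and at 0.970 and 0.812 CPM in shUBXN1, and DCN at 0.638 and 0.553 CPM and 0.0808 and 0.0427 CPM. Counts from mitochondrial genes made up 5.28% and 5.59% of the shCon libraries and 7.43% and 8.27% of the shUBXN1 libraries, and their part in the results below was not tested.

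UBXN1 knockdown was accompanied by lower FTO transcript and by smaller decreases in METTL3 and WTAP, while the other 7 genes did not pass the test. Of the 10 genes, 3 were lower and 0 were higher at an adjusted p under 0.05 (edgeR's quasi-likelihood test, Benjamini-Hochberg adjustment over all genes tested). Across all genes tested, 28.2% were lower and 28.0% were higher by the same rule, so the count of lower m6A genes was near the background. Among the 7096 genes tested whose mean abundance lay within the range of the 10 genes, 39.6% were lower and 28.0% were higher. The 10 genes had a median log2 fold change of -0.11, against 0.016 for all genes tested and -0.077 for those 7096 genes. By sign alone 9 of 10 values were negative, but under total count scaling the values of ALKBH5, YTHDF3 and YTHDC1 turned positive. The study's thresholds, at least a 2-fold change and an unadjusted p under 0.05, were applied here to the edgeR values. None of the 10 genes was called, whereas 6.09% of all genes tested were lower and 11.8% were higher. The study itself used limma on TPM, and with limma on log2(TPM + 1) the same thresholds gave 524 lower and 1028 higher of 16863 genes. In CPM, both shUBXN1 libraries lay below both shCon libraries for METTL3, WTAP, VIRMA and FTO, which is 4 of 10 against 38.6% of all genes tested. Because these are bulk libraries, fewer cells with a transcript and less of it per cell cannot be told apart.

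**Figure D1:**
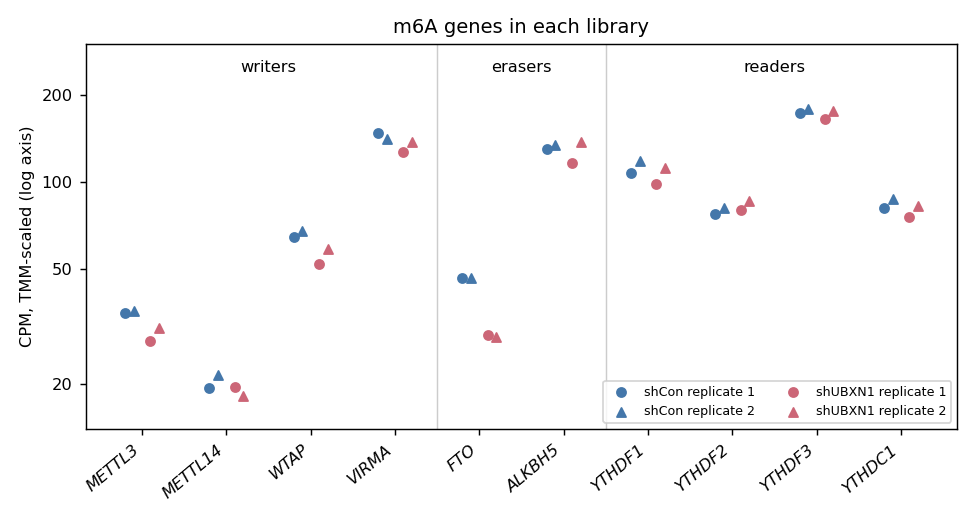
TMM-scaled CPM (log axis) of the 10 m6A genes in each of the 4 libraries, with shCon in blue, shUBXN1 in red, replicate 1 as circles and replicate 2 as triangles. FTO shows the widest gap between groups, from 46.6 and 46.7 CPM to 29.7 and 29.1 CPM, while the groups of METTL14, ALKBH5 and the 4 readers overlap.

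METTL3, the catalytic writer (ENSG00000165819, chr14:21498133-21511342, minus strand; positions here and below are those of the GENCODE annotation on GRCh38), was measured at 35.3 and 36.0 CPM in shCon and at 28.3 and 31.4 CPM in shUBXN1. Both knockdown libraries were below both controls, and the spread was wider among the knockdown libraries. The log2 fold change was -0.26 ± 0.0893 (SE; edgeR adjusted p = 0.0246), which left 83.7% of the control level with a 95% interval from 73.3% to 95.6%. The METTL3 call was lost when shCon replicate 1 (edgeR adjusted p = 0.0791), shCon replicate 2 (0.138) or shUBXN1 replicate 1 (0.102) was left out, with DESeq2 (0.0854), and under total count scaling (0.0888). The gene shares 6.62% of its exon bases with TOX4 on the opposite strand. TOX4 stood at 52.9 and 52.7 CPM in shCon and at 46.8 and 50.2 CPM in shUBXN1, and without knowledge of the strand setting of the counting its reads cannot be told apart from those of METTL3 over the shared bases.

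METTL14, the partner that completes the catalytic heterodimer (ENSG00000145388, chr4:118685392-118715433, plus strand), had 19.4 and 21.6 CPM in shCon and 19.6 and 18.2 CPM in shUBXN1, and the groups overlapped. The difference of -0.12 on the log2 scale had a 95% interval from -0.35 to 0.12 (edgeR adjusted p = 0.382). This interval includes a decrease as large as that of METTL3, so a difference between the 2 subunits was not shown. The ratio of METTL3 to METTL14 in TPM (counts per base of gene length, scaled to the same total in every library) was 6.11 and 5.59 in shCon and 4.85 and 5.79 in shUBXN1, and these ranges overlapped.

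WTAP, the adaptor that holds the heterodimer at nuclear speckles (ENSG00000146457, chr6:159725585-159756319, plus strand), changed about as much as METTL3. Its level was 64.8 and 67.7 CPM in shCon and 52.1 and 58.6 CPM in shUBXN1, without overlap. WTAP changed by -0.26 ± 0.0810 on the log2 scale (SE; edgeR adjusted p = 0.0135), or 83.5% of the control level with a 95% interval from 74.0% to 94.2%. The WTAP call was lost without shCon replicate 2 (edgeR adjusted p = 0.134) and without shUBXN1 replicate 1 (0.0524), and when the trend of counts on GC content was removed (0.104). Of the WTAP exon bases, 6.81% lie opposite SOD2, which was not analysed here.

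VIRMA, the scaffold of the complex (ENSG00000164944, chr8:94487689-94553529, minus strand), was measured at 148 and 141 CPM in shCon and at 127 and 138 CPM in shUBXN1. The groups did not overlap, but the log2 fold change of -0.13 with a 95% interval from -0.29 to 0.03 did not pass the test (edgeR adjusted p = 0.164).

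FTO, an eraser whose locus is also known for its association with body weight (ENSG00000140718, chr16:53701692-54158512, plus strand), had the largest change of the 10 genes. Its level was 46.6 and 46.7 CPM in the shCon libraries and 29.7 and 29.1 CPM in the shUBXN1 libraries. The replicates of each group lay within 1 CPM of each other, and the groups were far apart. FTO changed by -0.67 ± 0.0817 on the log2 scale (SE; edgeR adjusted p = 8.66e-06), which left 63.0% of the control level with a 95% interval from 55.8% to 71.2%. FTO was called lower in all 17 other fits to these libraries, with log2 fold changes from -0.68 to -0.58, including the 4 that left out 1 library. The annotated antisense gene over 0.842% of its exon bases was at 0 in every library.

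ALKBH5, the other eraser of mRNA m6A (ENSG00000091542, chr17:18183078-18209954, plus strand), had 130 and 135 CPM in shCon and 116 and 137 CPM in shUBXN1. The 2 knockdown libraries fell on either side of the controls. The log2 fold change of -0.06 had a 95% interval from -0.24 to 0.12 (edgeR adjusted p = 0.555), and leaving out shUBXN1 replicate 1 turned it to 0.051. The intervals of FTO and ALKBH5 did not overlap, although the difference between their changes was not itself tested. In TPM, the ratio of FTO to ALKBH5 was 0.392 and 0.379 in shCon and 0.279 and 0.232 in shUBXN1 with the deposited gene lengths, and 0.0979, 0.0946, 0.0698 and 0.0579 in the same order with the canonical transcript lengths described below.

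The 4 readers did not pass the test in either direction. YTHDF1, linked to translation of m6A-bearing mRNA (ENSG00000149658, chr20:63195429-63216139, minus strand), had 108 and 118 CPM in shCon and 98.5 and 112 CPM in shUBXN1. Its log2 difference was -0.10 with a 95% interval from -0.28 to 0.08 (edgeR adjusted p = 0.328). YTHDF2, which recruits deadenylation and cleavage machinery to m6A-bearing mRNA (ENSG00000198492, chr1:28736621-28769775, plus strand), had 77.9 and 81.3 CPM in shCon and 80.1 and 86.1 CPM in shUBXN1. It was the only member with a positive estimate, 0.06 with a 95% interval from -0.10 to 0.22 (edgeR adjusted p = 0.508), and the estimate became -0.0053 without shUBXN1 replicate 2. An antisense gene lies over 24.7% of the YTHDF2 exon bases and was measured at 0.553 to 1.07 CPM.

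YTHDF3, the third cytoplasmic paralog (ENSG00000185728, chr8:63168553-63212786, plus strand), had 173 and 178 CPM in shCon and 165 and 176 CPM in shUBXN1. The log2 fold change of YTHDF3 was -0.04 with a 95% interval from -0.20 to 0.12 (edgeR adjusted p = 0.653). YTHDC1, the nuclear reader that takes part in splicing and export of m6A-bearing RNA (ENSG00000083896, chr4:68310387-68350090, minus strand), had 81.4 and 87.1 CPM in shCon and 76.0 and 83.0 CPM in shUBXN1. Its log2 difference was -0.08 with a 95% interval from -0.25 to 0.08 (edgeR adjusted p = 0.381). In CPM, groups overlapped for each of the 4 readers. In TPM they did not for YTHDF2 (57.8 and 58.5 in shCon, 63.3 and 63.2 in shUBXN1) and YTHDF3 (148.7 and 149.0, 151.7 and 149.5). Both were higher in shUBXN1 in TPM, which carries no TMM factors, whereas the YTHDF3 estimate from the count test was -0.04. The share of all genes whose groups did not overlap in TPM was not determined.

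With 426 to 4603 counts per gene and library, the half-width of the 95% interval ran from 0.157 to 0.232 on the log2 scale over the 10 genes. One library weighed on the smaller changes. Without shUBXN1 replicate 2, the log2 fold changes of VIRMA, ALKBH5 and YTHDF1 were -0.20, -0.20 and -0.21, against -0.13, -0.06 and -0.10 with all libraries. Without shUBXN1 replicate 1 they were -0.074, 0.051 and -0.012. As given above, METTL3 and WTAP lost their calls without shCon replicate 2 and without shUBXN1 replicate 1.

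**Figure D2:**
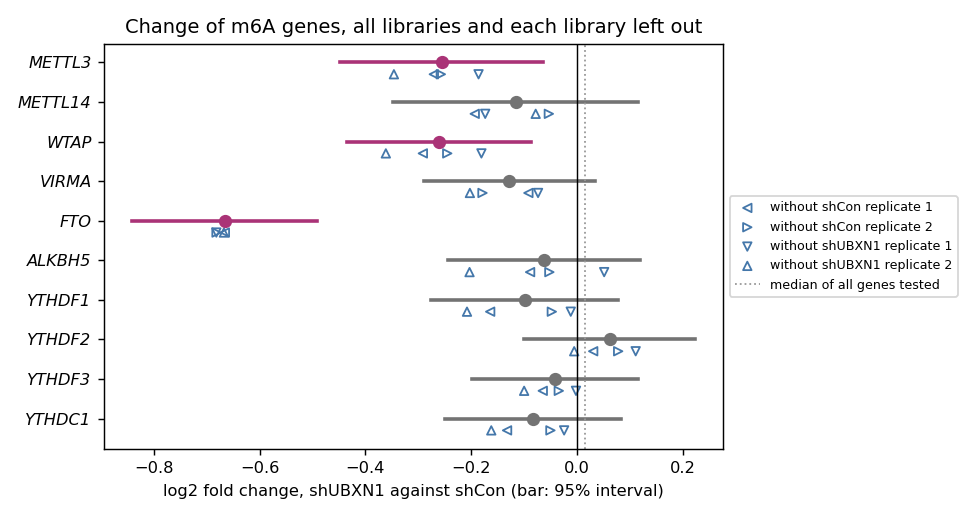
Log2 fold change of shUBXN1 against shCon for the 10 m6A genes. Filled points and bars are estimates and 95% intervals from all 4 libraries, with called genes in purple, and open blue symbols are estimates with 1 library left out. FTO stays between -0.68 and -0.67 whichever library is left out, whereas ALKBH5 ranges from -0.20 to 0.051.

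Since FTO, METTL3 and WTAP were the genes called lower, the 250 bases before the RefSeq start of each are shown (GRCh38.p14, written in the direction of transcription, for WTAP at the upstream one of 2 starts). Capitals mark matches, on either strand, to CCAAT (the CCAAT box), GGGCGG (the GC box), CCGGAA (the core of ETS factor sites), TATAAA (the TATA box), CACGTG (the E-box), and to ACTACA when it was followed after any 2 bases by TCCC. The last of these was added to the search after the FTO sequence had been seen.
FTO (chr16:53703906-53704155, plus strand): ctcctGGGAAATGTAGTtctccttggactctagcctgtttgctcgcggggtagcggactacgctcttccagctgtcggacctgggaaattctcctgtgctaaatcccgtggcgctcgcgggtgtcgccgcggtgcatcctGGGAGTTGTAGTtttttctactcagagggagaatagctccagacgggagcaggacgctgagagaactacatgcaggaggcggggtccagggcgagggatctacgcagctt
METTL3 (chr14:21511341-21511590, minus strand): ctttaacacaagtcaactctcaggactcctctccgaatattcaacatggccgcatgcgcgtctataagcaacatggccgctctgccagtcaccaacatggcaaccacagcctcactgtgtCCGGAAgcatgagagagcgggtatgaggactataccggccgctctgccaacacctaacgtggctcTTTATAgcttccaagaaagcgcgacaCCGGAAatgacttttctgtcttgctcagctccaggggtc
WTAP (chr6:159726867-159727116, plus strand): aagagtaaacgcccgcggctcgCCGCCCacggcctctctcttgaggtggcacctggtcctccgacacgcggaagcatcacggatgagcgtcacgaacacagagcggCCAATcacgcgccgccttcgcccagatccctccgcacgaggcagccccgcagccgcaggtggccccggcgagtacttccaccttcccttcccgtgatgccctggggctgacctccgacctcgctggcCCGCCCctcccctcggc
The FTO window held 2 matches to the ACTACA pattern, both marked above, and none to the other letters. Of 35116 RefSeq promoter windows of this length, 1.67% held that pattern. The METTL3 window held 2 CCGGAA matches (in 14.5% of windows) and 1 TATAAA match (10.7%). The WTAP window held 1 CCAAT match (32.0%) and 2 GGGCGG matches (42.6%), and the window of its second start held 4 GGGCGG matches. No searched pattern occurred in the windows of all 3 genes. Members that were not called held some of the same letters. METTL14 had 2 CCGGAA matches and 1 CCAAT match, and GGGCGG occurred in windows of ALKBH5, YTHDF1, YTHDF2 and YTHDC1. TATAAA and the ACTACA pattern did not occur in the windows of these genes, and those of VIRMA and YTHDF3 were not searched. These matches describe letters only and say nothing of binding.

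Between genes, levels were compared per transcript length as TPM from the gene lengths in the deposited table. YTHDF3 was the most abundant, with a mean of 149 ± 0.222 TPM (SD, n = 2) in shCon and 151 ± 1.54 TPM in shUBXN1. It was followed in shCon by ALKBH5 (83.9 TPM), YTHDF1 (70.6 TPM), YTHDF2 (58.2 TPM), YTHDC1 (56.6 TPM), VIRMA (44.8 TPM), WTAP (36.3 TPM), METTL3 (36.1 TPM), FTO (32.4 TPM) and METTL14 (6.19 TPM). The order was the same in shUBXN1, where FTO stood at 21.3 TPM and METTL14 at 5.95 TPM. Of the neighbours in this order, only WTAP and METTL3 overlapped between libraries, in both groups. Of the summed TPM of the 3 YTHDF paralogs, YTHDF3 held 52.8% to 54.1% over the 4 libraries. YTHDF1 held 24.90% and 25.97% in shCon and 23.70% and 24.88% in shUBXN1. YTHDF2 held 21.0% and 20.9% in shCon and 22.5% and 22.3% in shUBXN1. For YTHDF1 and YTHDF2 the shares of the groups did not overlap, and these differences were not tested.

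The order depended on the length given to each gene. The deposited length of FTO was 2889 bases, whereas its canonical GENCODE transcript has 11573 bases, and the lengths of YTHDF3 (2363 and 5095 bases), YTHDC1 (2983 and 6233 bases) and WTAP (3656 and 2105 bases) also differed. With the canonical lengths, ALKBH5 came first at 88.6 TPM in shCon, YTHDF3 was at 72.9 TPM, WTAP rose to 66.6 TPM and FTO was at 8.53 TPM in shCon and 5.61 TPM in shUBXN1. The shares of the YTHDF paralogs then lay closer together, at 34.2% to 35.3% for YTHDF3, 33.3% to 36.3% for YTHDF1 and 29.2% to 31.6% for YTHDF2, which was the lowest in every library. Fold changes between groups were not affected by this choice in the count test.

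**Figure D3:**
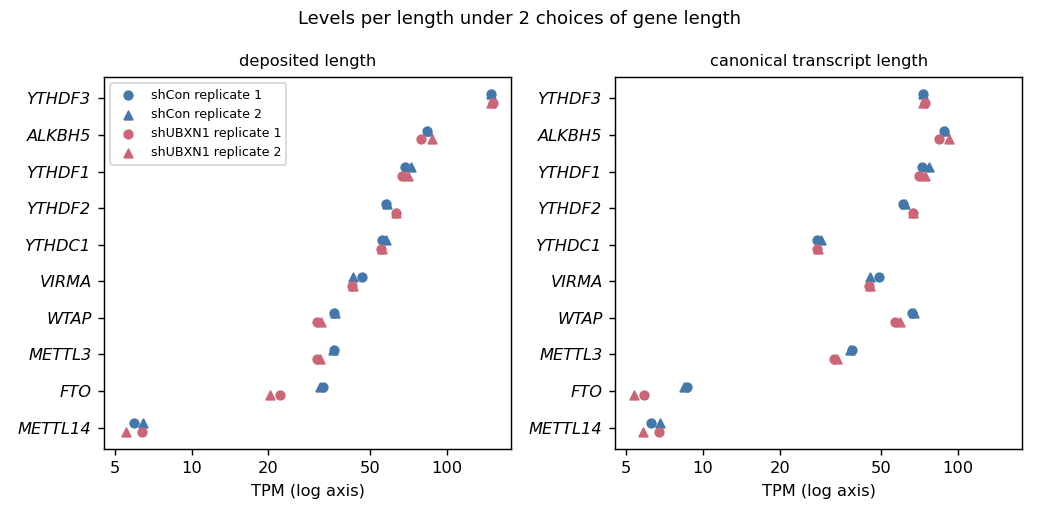
TPM (log axis) of the 10 m6A genes in each library, with lengths from the deposited table on the left and with canonical transcript lengths on the right (shCon blue, shUBXN1 red). Rows keep the order of the left panel, and FTO moves from 32.4 to 8.53 TPM in shCon between the panels.

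Around these 10 genes, 61 further genes were examined in 7 lists, of which 60 were tested. The lists covered writing and reading of m6A, other AlkB family dioxygenases and methyl donor supply. They also covered the mRNA decay machinery that YTHDF2 recruits and the splicing and export partners of YTHDC1. In all, 31 of 60 (51.7%) were lower and 12 (20%) were higher, against 28.2% and 28.0% of all genes tested and 39.6% and 28.0% of the 7096 genes in the abundance range of the 10 m6A genes. The median log2 fold change was -0.23, against 0.016 for all genes tested and -0.077 for those 7096 genes. The counts of the single lists below are read against the same shares, and nothing particular to a list was tested. The lists were chosen with earlier results of these data known, and how far that choice shaped their shares was not tested. With the study's thresholds applied to the edgeR values, 1 of 60 was lower (PRRC2A) and 1 was higher (NXF1). By that rule 6.09% of all genes tested were lower and 11.8% were higher. Apart from HNRNPC, the called genes named below are those with the largest changes of each list, and a few uncalled ones are named beside them.

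Among 4 further subunits of the writer complex, the paralogs RBM15 and RBM15B, which bring the complex to its RNA targets, moved in opposite directions. RBM15 rose from 14.3 and 11.7 CPM to 21.6 and 27.4 CPM (log2 fold change 0.92, edgeR adjusted p = 5.05e-05). RBM15B fell from 92.9 and 93.6 CPM to 52.6 and 59.1 CPM (log2 fold change -0.74, edgeR adjusted p = 2.27e-06). The other 2 subunits, ZC3H13 and CBLL1, did not pass the test. Both calls held in all 17 other fits.

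Of 6 other RNA m6A and m6Am methyltransferase genes, 2 (33.3%) were lower and 0 were higher. Among all genes tested these shares were 28.2% and 28.0%, and among genes in the abundance range of the 10 m6A genes 39.6% and 28.0%. METTL5, which methylates 18S rRNA, fell from 39.2 and 36.2 CPM to 24.3 and 24.1 CPM (log2 fold change -0.64, edgeR adjusted p = 3.06e-05). Its obligate partner TRMT112 had 117 and 128 CPM in shCon and 124 and 124 CPM in shUBXN1 and did not pass the test. METTL16, which methylates U6 snRNA and MAT2A mRNA, fell from 70.7 and 72.4 CPM to 51.6 and 60.7 CPM (log2 fold change -0.35, edgeR adjusted p = 0.00300).

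The supply of the methyl donor S-adenosylmethionine (SAM) and the removal of its product S-adenosylhomocysteine were covered by 7 genes, of which 6 were tested. Of these, 3 were lower (50%, against 28.2% of all genes tested) and 2 were higher (33.3%, against 28.0%). MAT2A, the SAM synthetase of most non-hepatic and tumor cells, fell from 564 and 548 CPM to 377 and 378 CPM (log2 fold change -0.56, edgeR adjusted p = 2.09e-05). Its regulatory subunit MAT2B had a log2 fold change of -0.35 (edgeR adjusted p = 0.00422; called in 15 of 17 other fits), and AHCY, which hydrolyses S-adenosylhomocysteine, one of -0.56 (edgeR adjusted p = 5.68e-05). The AHCY-like genes AHCYL1 and AHCYL2 were higher, by 0.46 and 0.67 on the log2 scale (edgeR adjusted p = 0.000100 and 3.89e-05). MAT1A, the SAM synthetase of adult liver, had 0 to 5 counts in each library and was not tested.

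METTL16 and MAT2A are known as a pair, since METTL16 acts on hairpins in the 3' UTR of the MAT2A transcript. Both transcripts were lower after knockdown, and the sites are shown because they link a methyltransferase of these lists to its best known mRNA substrate. The MAT2A 3' UTR held 6 copies of the METTL16 target letters, TACAGAGAA 5 times and TACAGAAAA once (capitals, sense strand of GRCh38, 29 bases each).
MAT2A site 1 (chr2:85543802-85543830, plus strand): tggcgtaggcTACAGAGAAgccttcaagc
MAT2A site 2 (chr2:85544589-85544617, plus strand): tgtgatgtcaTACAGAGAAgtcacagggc
MAT2A site 3 (chr2:85544774-85544802, plus strand): ctggtgtagcTACAGAGAAaccagcttcc
MAT2A site 4 (chr2:85544889-85544917, plus strand): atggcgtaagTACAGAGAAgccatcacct
MAT2A site 5 (chr2:85545004-85545032, plus strand): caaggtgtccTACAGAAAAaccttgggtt
MAT2A site 6 (chr2:85545112-85545140, plus strand): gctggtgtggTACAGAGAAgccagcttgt
Of 20046 canonical protein-coding transcripts, 7.78% held at least 1 copy of either 9-letter form on the sense strand and 2 held 6 or more, MAT2A among them. Methylation of these sites was not measured.

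Among 7 other AlkB family dioxygenases, 2 were lower (28.6%, against 28.2% of all genes tested) and 3 were higher (42.9%, against 28.0%). ALKBH3, a demethylase of alkylated nucleic acids, fell by 0.71 on the log2 scale (edgeR adjusted p = 0.000165), from 21.1 and 19.8 CPM to 11.4 and 13.5 CPM. ALKBH8, a tRNA-modifying enzyme, had -0.36 (edgeR adjusted p = 0.0320) and lost its call in 8 of 17 other fits. ALKBH7, ALKBH4 and ALKBH6 were higher by 0.43, 0.38 and 0.34 on the log2 scale (edgeR adjusted p = 0.0128, 0.00514 and 0.0326), and of these ALKBH7 kept its call in 13, ALKBH4 in 16 and ALKBH6 in 12 of the 17 other fits.

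Of 12 other genes reported as readers, 6 were lower (50%) and 2 were higher (16.7%). Among all genes tested these shares were 28.2% and 28.0%, and among genes in the abundance range of the 10 m6A genes 39.6% and 28.0%. PRRC2A, RBMX, HNRNPA2B1 and HNRNPC, all called lower, lay above that range, so the last 2 shares are not matched to this list in abundance. PRRC2A fell from 232 and 244 CPM to 110 and 116 CPM (log2 fold change -1.08, edgeR adjusted p = 3.17e-08). RBMX fell from 382 and 374 CPM to 218 and 224 CPM (log2 fold change -0.77, edgeR adjusted p = 7.12e-07), and HNRNPA2B1, like RBMX a nuclear RNA-binding protein, had a log2 fold change of -0.48 (edgeR adjusted p = 0.000251). FXR2 and FMR1, of the fragile X family of translation regulators, were higher by 0.42 and 0.36 on the log2 scale (edgeR adjusted p = 0.000259 and 0.000717), the FMR1 call being held in 16 of 17 other fits. The 3 IGF2BP genes, which encode stabilizers of m6A-bearing mRNA, did not pass the test.

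YTHDF2 did not pass the test. The decay list held 21 genes of the CCR4-NOT deadenylase, UPF1, RIDA (also called HRSP12) and RNase P/MRP, which YTHDF2 recruits directly or through partners. Of these, 14 were lower (66.7%) and 3 were higher (14.3%). Among all genes tested these shares were 28.2% and 28.0%, and among genes in the abundance range of the 10 m6A genes 39.6% and 28.0%. Some genes of the decay list lay outside that range. The median log2 fold change of the list was -0.34. The largest decreases were those of CNOT10 (-0.80, edgeR adjusted p = 3.52e-06), RPP40 (-0.76, 0.00114) and POP1 (-0.63, 7.07e-05). CNOT10 is a CCR4-NOT subunit, and RPP40 and POP1 are protein subunits of RNase P/MRP. RPP14 (0.49, edgeR adjusted p = 0.00192), CNOT8 (0.39, 0.00125) and CNOT6L (0.26, 0.0378) were higher, the latter 2 being deadenylases, and CNOT6L kept its call in 12 of 17 other fits. RIDA, which bridges YTHDF2 and RNase P/MRP, had 25.8 and 31.3 CPM in shCon and 31.3 and 33.8 CPM in shUBXN1 (edgeR adjusted p = 0.130).

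Of 4 nuclear partners of YTHDC1, 3 were lower (75.0%) and 1 was higher (25%). Among all genes tested these shares were 28.2% and 28.0%, and among genes in the abundance range of the 10 m6A genes 39.6% and 28.0%. SRSF3 and ALYREF lay above that range. SRSF3 (-0.59, edgeR adjusted p = 1.55e-05) and SRSF10 (-0.21, 0.0226), splicing factors, and ALYREF (-0.62, 4.35e-05), an mRNA export adaptor, were lower. NXF1, the mRNA export receptor, rose from 53.4 and 50.1 CPM to 118 and 107 CPM (log2 fold change 1.12, edgeR adjusted p = 4.31e-08). The SRSF10 call held in 10 of 17 other fits and the NXF1 call in all 17.

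**Figure D4:**
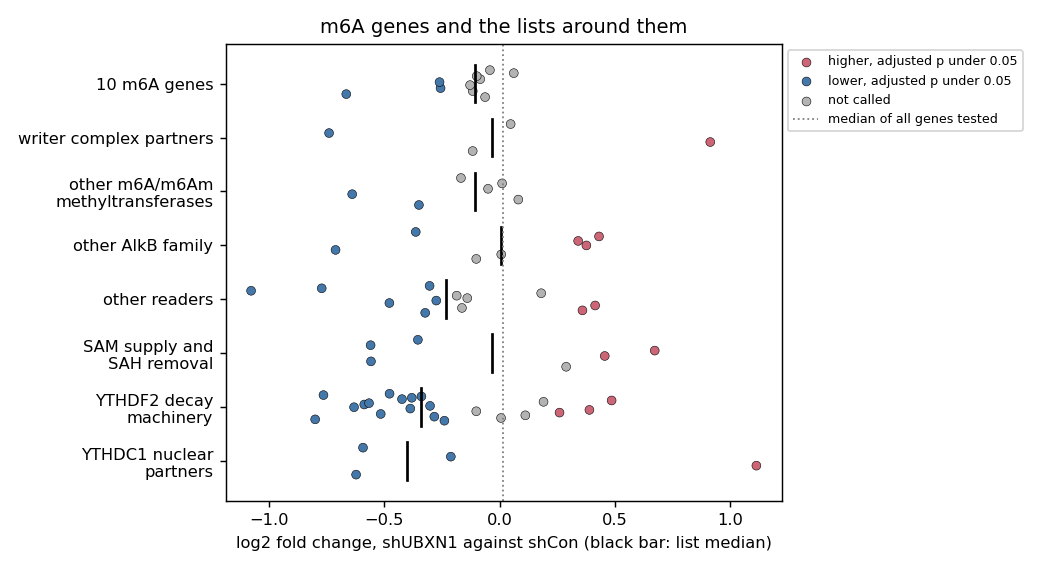
Log2 fold change of shUBXN1 against shCon for the 10 m6A genes and for the tested genes of 7 lists around them. Each point is a gene, coloured by its call, black bars are list medians and the dotted line is the median of all genes tested (0.016). The median of the 10 m6A genes is -0.11, that of the decay machinery of YTHDF2 is -0.34, and NXF1 is the highest point at 1.12.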

How the data were processed

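RNA of MHCC97H cells was sequenced in 4 libraries, 2 shCon and 2 shUBXN1, grouped by the sample labels. The authors deposited expected counts per Ensembl gene, not normalized, with a gene length. Per the study's methods, reads were aligned with Hisat2 to GRCh38, while the submitters' processing notes list GRCh37, HISAT2 2.0.4 and StringTie 1.3.0. The table holds no coordinates, and the counting tool, annotation release and strand setting are not given in the sources used here. Genes that share bases are therefore uncertain.

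Symbols were matched for 61369 of 61541 IDs. Counts were rounded, filtered with filterByExpr, scaled with TMM and tested over all genes with glmQLFit and glmQLFTest in edgeR 4.0.16 (R 4.3.3), with no block. Adjusted p-values follow Benjamini and Hochberg, with a threshold of 0.05. Each gene had 2 residual degrees of freedom, and its variance was moderated toward the trend over all genes (median prior degrees of freedom 12.1). The edgeR standard errors, intervals and p-values therefore draw more on the spread over all genes than on each gene's own libraries. TPM was computed from the deposited lengths. The study's methods name TPM and limma, and limma 3.58.1 on log2 TPM was run as an alternative. The other alternatives were DESeq2 1.42.0, limma-voom, total count and RLE scaling, other filters, protein-coding genes only, unrounded counts, a replicate block, removal of the GC trend, each library left out and the study's call rule. Canonical transcript lengths were added after seeing the data. The fit was also run on counts simulated from its own fitted dispersions, which cannot show whether its assumptions hold for these libraries. Intervals are at 95%, and libraries of a group differed by more than sampling noise (chi-square per degree of freedom 3.65 and 7.77). Named genes are the 10 members, UBXN1, and of each list up to 3 called genes per direction with the largest change. Genes named beyond this rule, such as TOX4, TRMT112, RIDA and MAT1A, were added once their values had been seen. Members and lists were chosen with earlier results of these data known. Promoter sequences are from RefSeq.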

Additional observations from a re-analysis of the deposited data

How the results depend on the processing

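Of the 10 m6A genes, FTO kept its direction and call in all 17 other fits, METTL3 in 12 and WTAP in 13. UBXN1 kept both in all 17, with log2 fold changes from -2.19 to -1.93. The number of m6A genes called lower ran from 1 to 6 when single libraries were left out, against 3 with all libraries. Each of these fits left 1 library in a group, and their counts were not compared with the calls over all genes. Whether 1 or 6 of 10 departs from the background of its fit is therefore not known. With the study's thresholds of fold change and unadjusted p applied to the edgeR values, 0 of the 10 genes were lower. In the same way 1 of 60 pathway genes was lower and 1 higher. Over all 16863 genes tested, 1027 (6.09%) were lower and 1997 (11.8%) higher. Estimates near 0 changed sign. With the GC trend removed, METTL14 was at 0.043, VIRMA at 0.012, YTHDF3 at 0.12 and YTHDC1 at 0.057 (0.044, 0.011, 0.12 and 0.057 with the replicate block added). Under total count scaling ALKBH5 was at 0.020, YTHDF3 at 0.043 and YTHDC1 at 0.00027, and in limma on log2(TPM + 1) and log2(TPM + 0.1) YTHDF3 was at 0.017. With single libraries left out, ALKBH5 ranged from -0.20 to 0.051 and YTHDF2 from -0.0053 to 0.11. The cause was not tested. With the replicate number as a block, 5000 genes were higher and 5023 lower, and FTO (-0.67), METTL3 (-0.26) and WTAP (-0.26) remained the only m6A genes called. With the block and the GC trend removed together, WTAP lost its call (edgeR adjusted p = 0.0546) and ALKBH5 gained one (0.0365). The deviations of same-numbered libraries correlated at 0.039, so the numbers were not taken as pairs. With 2 libraries per group, no test for an outlying library within a group was made.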
